A study of Homo sapiens with 6 samples.

Results

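SWI/SNF chromatin remodeling subunits were examined as the rows of the deposited gene table whose symbol is ARID1A, ARID1B, ARID2, SMARCA2, SMARCA4, SMARCB1, SMARCC1, SMARCC2, SMARCD1 or SMARCE1. All 10 were found among 58735 genes, 1 row each. The cells were TPC1, an established line from papillary thyroid cancer that carries a RET fusion. They were transfected for 60 h either with si-circ_0000839, which targets the circular RNA hsa_circ_0000839 (3 libraries), or with control siRNAs labelled NC (3 libraries). The comparison asks which genes differ once this circular RNA is targeted. Both groups were the same line grown in DMEM with serum. The data speak for that line only. Separate cultures per library are not stated in the labels, so the spread behind each p-value may be technical. In bulk RNA, fewer cells expressing a gene and less RNA of it per cell cannot be told apart.

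SWI/SNF complexes use the energy of ATP to slide or evict nucleosomes, which opens promoters and enhancers to transcription factors. Each complex holds 1 of the alternative ATPases SMARCA4 and SMARCA2 on a scaffold of SMARCC and SMARCD proteins, and is sorted into classes by further subunits: ARID1A or ARID1B mark canonical BAF, and ARID2 marks PBAF. Subunit genes, ARID1A and SMARCA4 among them, are recurrently mutated in cancers, including anaplastic thyroid cancer, and SMARCB1 is lost in rhabdoid tumours.

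Levels are given as FPKM, fragments divided by gene length and by a scaling total of the library. Log2 changes of genes were taken after adding 1 FPKM, so changes of low genes are understated. Among the alternative settings, those with a pseudocount of 0.1 and with voom on reads did not use this scale. The libraries held 18399558 to 19334633 reads recovered from the FPKM steps. The scaling total, read from the same steps, was 0.958 (NC replicate 2) to 1.02 (NC replicate 3) times these reads. In si-circ_0000839 replicate 1 it was 0.971 times these reads. The thyroid factor PAX8 stood at 96.3 ± 5.26 FPKM after si-circ_0000839 and 95.8 ± 2.21 in NC (SD, n = 3), and FOXE1 at 11.6 and 10.9, while NKX2-1, TSHR and SLC5A5 had 0 reads in every library, where 3 reads would have given at most 0.0521 FPKM. The leukocyte markers PTPRC and CD3E were also at 0, and 4 endothelial markers summed to at most 0.153 FPKM in any library. Of 6 fibroblast markers, whose sum was 14.3 to 19.0 FPKM after si-circ_0000839 and 20.02 to 25.1 in NC, only LUM averaged 1 FPKM or more. LUM was lower after si-circ_0000839 (15.8 against 22.5 FPKM), while COL1A1, at 0.565 against 0.370 FPKM, was higher, and neither gene's groups overlapped. COL1A2, DCN and PDGFRA had at most 1 read in each library. Of the 4 epithelial markers KRT8 and KRT18 were abundant and KRT19 and EPCAM averaged under 1 FPKM. The part of these fibroblast marker differences in the results was not tested. The circular RNA itself was not matched to a row of the gene table, so its depletion was not checked.

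Subunit genes spanned a wide range of levels, and none passed the test between the groups. SMARCD1 was the most abundant, at a mean of 27.8 FPKM over the 6 libraries, and SMARCE1 the least, at 0.104 FPKM. The SMARCE1 value cannot be read as the level of its mRNA, for a reason given below. Next lowest was ARID2, at 0.983 FPKM. The filter of a mean of at least 1 FPKM was passed by 8 members, and ARID2 and SMARCE1 fell under it. With limma, 0 of the 8 passed an adjusted p of 0.05, where 0.384% of all 10674 tested genes did, and 2, SMARCA4 and ARID1A, had an unadjusted p under 0.05, both higher, where 6.31% of all tested genes were higher at that p. Limma's voom on the recovered reads also called 0 of the 8. All 8 log2 changes were above 0 (51.8% of all tested genes were), but only 5 of 8 stayed above 0 once a trend on GC content and gene length was removed from each library. Their median was 0.09, beside 0.0057 over all tested genes, and 0.038 with that trend removed. Over all genes 14 were called higher and 27 lower, 29 and 34 after quantile normalization and 32 and 23 after rescaling to TPM.

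**Figure D1:**
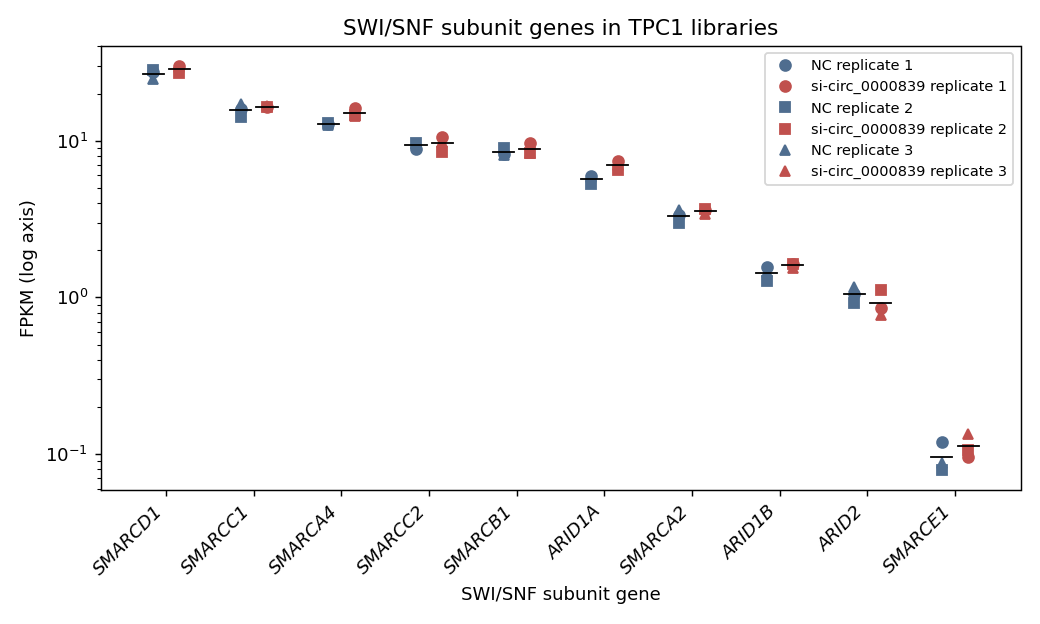
FPKM of the 10 subunit genes (log axis) in each NC (blue) and si-circ_0000839 (red) library, ordered by mean level, with symbols for replicate number and bars for group means. Levels run from SMARCD1 at a mean of 27.8 FPKM to SMARCE1 at 0.104 FPKM, and groups do not overlap for SMARCA4 and ARID1A alone. SMARCE1 shares most of its coding bases with another gene, and its value cannot be read as the level of its mRNA.

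The order of mean levels was SMARCD1, SMARCC1 (16.2 FPKM), SMARCA4 (13.9), SMARCC2 (9.51), SMARCB1 (8.64), ARID1A (6.34), SMARCA2 (3.43), ARID1B (1.51), ARID2 (0.983) and SMARCE1. Each gene lay above the next in 6 of 6 libraries. The range over the 6 libraries overlapped that of the next gene for SMARCC1 with SMARCA4 and for SMARCC2 with SMARCB1, and for no other neighbours. Among genes past the filter, 83.2% were at or below the level of SMARCD1 and 10.1% at or below that of ARID1B. These levels depend on the gene length used, and the place of SMARCE1 is limited by exons shared with another gene, described below. The deposited length equals the union of all annotated exons in GENCODE release 29, and it was 1.20 times (SMARCC1) to 5.61 times (ARID1B) the length of the gene's principal transcript. Per length of that transcript, SMARCA4 stood at 38.0 FPKM, next to SMARCD1 at 39.1, and SMARCC1, at 19.4, moved from the second to the fifth place, while ARID1B stood at 8.49.

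Of the ATPases, SMARCA4 (ENSG00000127616; chromosome 19, 10960825 to 11079426, plus strand, on GRCh38 as are all positions here) was the more abundant. Its level was 16.3, 14.6 and 14.4 FPKM in si-circ_0000839 replicates 1, 2 and 3, and 12.8, 13.0 and 12.6 in NC replicates 1, 2 and 3. Every si-circ_0000839 library lay above every NC library, and replicate 1 stood highest. The group means were 15.1 ± 1.05 and 12.8 ± 0.159 FPKM (SD, n = 3), a ratio of 1.18. The log2 change was 0.22 (SE 0.07, 95% interval 0.06 to 0.38), with an adjusted p of 0.248 in limma, so it did not pass. It was 0.14 (adjusted p = 0.139) after removal of the GC and length trend, 0.18 (adjusted p = 0.172) without si-circ_0000839 replicate 1 and NC replicate 2, and adjusted p ranged from 0.110 to 0.513 over all settings tried. These rested on 3717 to 4714 reads per library.

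SMARCA2, the alternative ATPase, is located on chromosome 9 from 1980290 to 2193624, plus strand. It was measured at 3.59, 3.67 and 3.40 FPKM after si-circ_0000839 and at 3.35, 2.98 and 3.60 in NC. The groups overlapped, and NC replicate 2 was the lowest library. Its log2 change was 0.08 (SE 0.08, 95% interval -0.10 to 0.26, adjusted p = 0.733 in limma). It was 0.026 without NC replicate 2, 0.13 without NC replicate 3, 0.031 with a trend on length removed and 0.047 with the GC and length trend removed.

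ARID1A, the DNA-binding subunit of canonical BAF (ENSG00000117713, chromosome 1, 26693236 to 26782110, plus strand), was at 7.44, 6.46 and 7.01 FPKM in si-circ_0000839 replicates 1 to 3 and at 5.93, 5.32 and 5.89 in NC replicates 1 to 3. The groups again did not overlap. Means were 6.97 ± 0.489 and 5.71 ± 0.345 FPKM (SD, n = 3), a ratio of 1.22. Its log2 change of 0.25 (SE 0.08, 95% interval 0.07 to 0.42) did not pass in limma (adjusted p = 0.242). The change was 0.16 both with the GC and length trend removed (adjusted p = 0.205) and without si-circ_0000839 replicate 1 and NC replicate 2 (adjusted p = 0.274), and adjusted p ranged from 0.143 to 0.542 over all settings tried. Higher values with no overlap, seen in 2 of the 8 tested members, were seen in 10.6% of all tested genes, and lower ones, seen in 0 members, in 7.55%.

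For these 2 members the 250 bases before the RefSeq start (GRCh38.p14) are shown, since their groups did not overlap. The RefSeq table has 2 windows for SMARCA4, of which the upstream one is printed. The other, chr19:10983874-10984123, held 55.6% G and C, 4 CG dinucleotides and 0 GC boxes. Capitals mark the GC box GGGCGG, searched on both strands.
SMARCA4, chr19:10960780-10961029, plus strand: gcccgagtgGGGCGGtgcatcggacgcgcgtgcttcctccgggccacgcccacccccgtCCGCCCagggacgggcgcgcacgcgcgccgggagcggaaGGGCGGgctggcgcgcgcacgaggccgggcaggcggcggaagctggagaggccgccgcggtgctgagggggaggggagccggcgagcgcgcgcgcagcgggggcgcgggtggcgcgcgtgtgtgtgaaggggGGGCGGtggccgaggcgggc
ARID1A, chr1:26695765-26696014, plus strand: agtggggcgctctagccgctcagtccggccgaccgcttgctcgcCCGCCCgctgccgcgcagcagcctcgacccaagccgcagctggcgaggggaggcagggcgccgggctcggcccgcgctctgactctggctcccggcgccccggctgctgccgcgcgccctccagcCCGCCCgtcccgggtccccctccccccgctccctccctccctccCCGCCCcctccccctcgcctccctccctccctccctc
The printed SMARCA4 window held 4 GC boxes, 44 CG dinucleotides and 82.4% G and C, and the ARID1A window 3, 30 and 80.4%, where the median window of 35116 RefSeq promoters held 11 CG dinucleotides and 58% G and C. A GC box was found in 42.6% of those promoters and in 6 of 12 windows of the 7 members that matched the RefSeq table. Neither printed window held the letters TATAAA or CCAAT on either strand, found in 10.7% and 32.0% of all windows. The matches describe the letters only. Among their longest transcripts GC content was 61.4% for SMARCA4 and 57.5% for ARID1A, the former above and the latter just under 58.5%, where the fifth of tested genes richest in GC begins. Over those genes si-circ_0000839 replicate 1 and NC replicate 2 lay 0.11 and 0.08 (log2) above the gene means. With the trend removed, both members kept positive changes, given above.

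ARID1B, the alternative to ARID1A in canonical BAF (chromosome 6, 156776020 to 157210779, plus strand), stood at 1.63, 1.63 and 1.55 FPKM after si-circ_0000839 and 1.57, 1.27 and 1.45 in NC. The groups overlapped through NC replicate 1. The log2 change was 0.10 (SE 0.09, 95% interval -0.09 to 0.29, adjusted p = 0.679 in limma), and it was 0.054 without NC replicate 2, -0.011 with a trend on length removed and -0.027 with the GC and length trend removed.

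ARID2, the subunit that defines PBAF (chromosome 12, 45729665 to 45908040, plus strand), was at 0.859, 1.12 and 0.775 FPKM after si-circ_0000839 and 1.06, 0.925 and 1.16 in NC, on 173 to 268 reads per library. The groups overlapped: si-circ_0000839 replicate 2 reached the NC range, while the other two were below it. As it missed the filter, its value comes from the limma fit without a filter, with a log2 change of -0.10 (SE 0.10, 95% interval -0.34 to 0.15, adjusted p = 0.779). It was the only one of the 10 members below 0 in that fit.

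**Figure D2:**
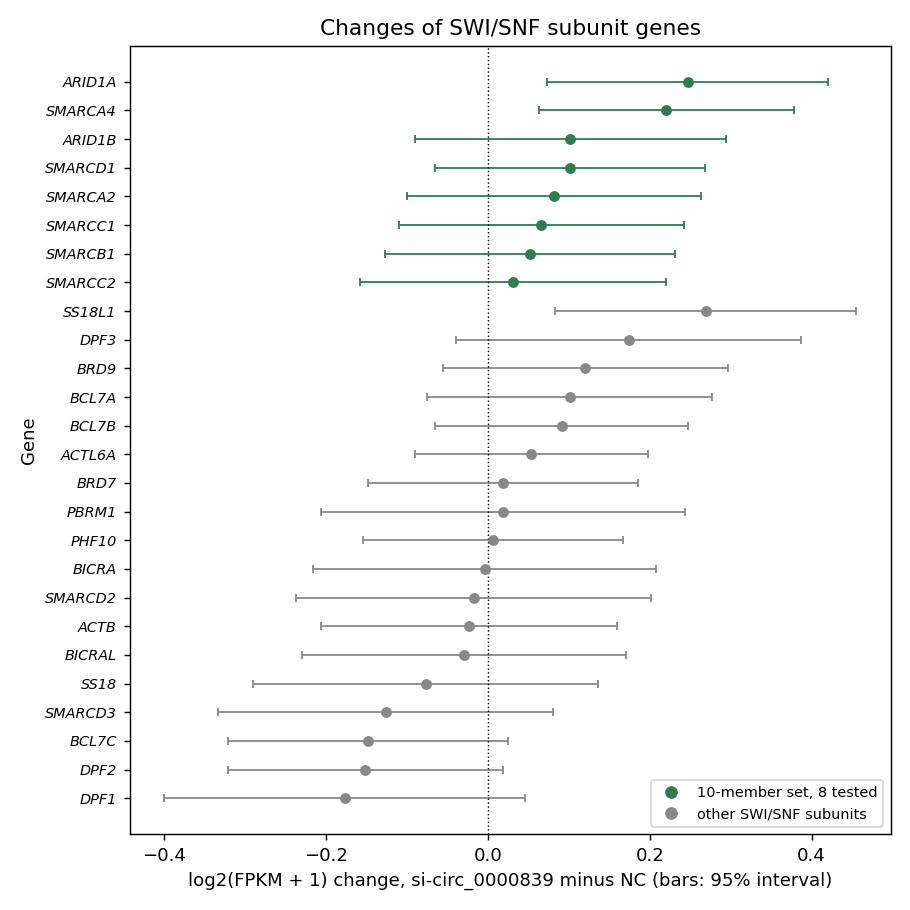
Log2(FPKM + 1) change, si-circ_0000839 minus NC, of the 8 tested members (green) and 18 other tested SWI/SNF subunit genes (grey), with 95% intervals of limma as bars. The intervals of ARID1A, SMARCA4 and SS18L1 leave out 0 before adjustment for multiple tests, and 0 of the 26 genes passed an adjusted p of 0.05.

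For each core and scaffold subunit the groups overlapped. SMARCC1, a scaffold protein (chromosome 3, 47585272 to 47782106, minus strand), was within 16.3 to 16.7 FPKM in the si-circ_0000839 libraries and at 16.0, 14.1 and 17.2 in NC replicates 1 to 3, a spread that enclosed the other group. Its log2 change was 0.07 (SE 0.08, 95% interval -0.11 to 0.24, adjusted p = 0.779 in limma), and -0.0068 without NC replicate 2. Its paralog SMARCC2 (chromosome 12, 56162983 to 56189567, minus strand) was at 10.6, 8.52 and 9.83 FPKM after si-circ_0000839 and 8.86, 9.72 and 9.56 in NC. Here the si-circ_0000839 libraries held both the highest and the lowest value. The log2 change of SMARCC2 was 0.03 (SE 0.09, 95% interval -0.16 to 0.22, adjusted p = 0.917 in limma), and -0.020 with the GC and length trend removed. Of the exonic length of SMARCC2, 6.01% is shared with MYL6 on the other strand, at 249 to 316 FPKM. The strand setting is not given in the sources used here, so reads of that stretch cannot be assigned with certainty.

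SMARCB1, the core subunit that contacts the nucleosome (chromosome 22, 23786931 to 23838008, plus strand), stood at 9.73, 8.34 and 8.40 FPKM after si-circ_0000839 and 8.27, 9.02 and 8.10 in NC. Each group had 1 library above the rest, si-circ_0000839 replicate 1 and NC replicate 2. The log2 change was 0.05 (SE 0.08, 95% interval -0.13 to 0.23, adjusted p = 0.836 in limma), -0.013 without si-circ_0000839 replicate 1 and -0.038 with the GC and length trend removed. SMARCB1 shares 17.7% of its exonic length and 56.1% of its principal transcript, but no coding bases, with DERL3 on the other strand. DERL3 was at 0.149 to 0.229 FPKM. The limit given for the stretch that SMARCC2 shares with MYL6 also holds for these shared bases.

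SMARCD1, which bridges the complex to transcription factors (chromosome 12, 50084972 to 50100712, plus strand), was at 29.9, 27.1 and 29.5 FPKM after si-circ_0000839 and 27.6, 28.1 and 24.7 in NC. The groups overlapped through si-circ_0000839 replicate 2, and NC replicate 3 was the lowest library. The log2 change was 0.10 (SE 0.08, 95% interval -0.07 to 0.27, adjusted p = 0.629 in limma). It was 0.046 without NC replicate 3 and 0.061 with the GC and length trend removed.

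For the 6 tested members other than SMARCA4 and ARID1A, the 95% intervals on the log2(FPKM + 1) scale ran from -0.16 (SMARCC2) to 0.29 (ARID1B) at their extremes. Of the 10 members, 6 had their highest value in si-circ_0000839 replicate 1 and 5 their lowest in NC replicate 2. Both are libraries with a raised level of GC-rich genes, 1 in each group. The same shares over all tested genes were not computed, so these counts show nothing particular to the members.

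SMARCE1, the subunit with an HMG domain that binds DNA (ENSG00000073584, chromosome 17, 40624962 to 40648864, minus strand), had only 27 to 46 reads per library. Its level was 0.0963, 0.106 and 0.134 FPKM after si-circ_0000839 and 0.119, 0.0795 and 0.0872 in NC, and the groups overlapped. In the fit without a filter its log2 change was 0.022 (SE 0.03, adjusted p = 0.820 in limma). In the annotation, exons of AC073508.2, on the same strand, cover 91.5% of the coding bases of the principal SMARCE1 transcript and 59.7% of that transcript, but 19.8% of all its exonic bases. AC073508.2 itself was listed at 0 FPKM in all 6 libraries. How reads on the exons of more than 1 gene were counted is not given in the sources used here, so the value of SMARCE1 cannot be read as the level of its mRNA. Of the other members only SMARCA4 shared exons with a gene on its own strand, over 1.71% of its principal transcript.

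**Figure D3:**
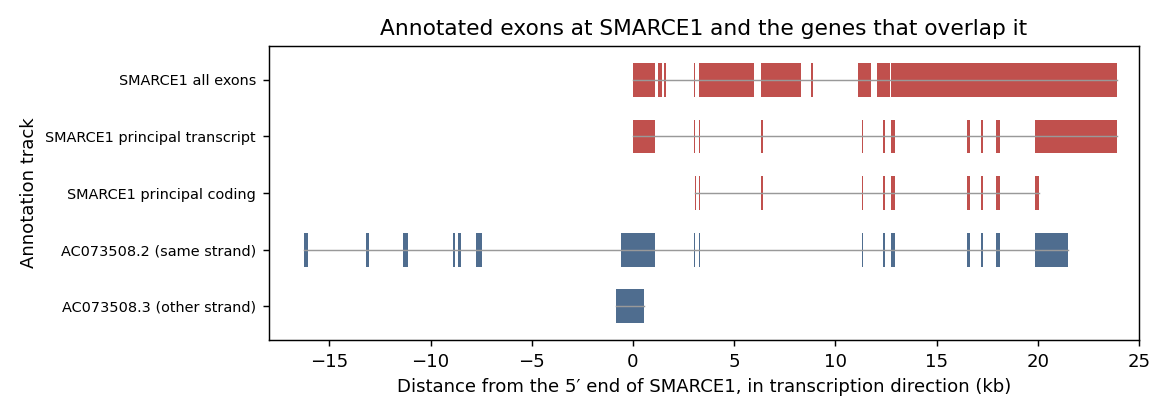
Annotated exons (boxes) of SMARCE1, of its principal transcript and that transcript's coding part (red), and of the genes whose exons overlap it (blue), by distance in kb from the SMARCE1 5′ end. Exons of AC073508.2 lie on nearly all coding exons of SMARCE1 and cover 91.5% of the coding bases.

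Ratios between alternative or paralogous subunits, which do not depend on a library's scaling factor, describe the balance of their RNA. They do not measure which forms of the complex were assembled. Of the 4 ratios compared, none passed, and with 3 against 3 libraries the smallest two-sided exact permutation p is 0.1. The ratio of SMARCA4 to SMARCA2 FPKM was 4.54, 3.96 and 4.23 after si-circ_0000839 and 3.81, 4.34 and 3.51 in NC, and the groups overlapped (log2 difference 0.13, within-group SD 0.13, exact permutation p = 0.3, 0.4 adjusted over the 4 ratios). The difference was 0.059 without NC replicate 3, 0.081 without si-circ_0000839 replicate 1, 0.21 without NC replicate 2 and 0.067 with the GC and length trend removed. SMARCA4 exceeded SMARCA2 in every library on this scale. The ratio of ARID1A to ARID1B was 4.56, 3.97 and 4.53 against 3.79, 4.199 and 4.07, also overlapping (log2 difference 0.11, SD 0.10, exact permutation p = 0.3, adjusted 0.4). That difference was 0.072 without NC replicate 1, 0.18 without si-circ_0000839 replicate 2, 0.19 with the GC and length trend removed and 0.23 with the length trend removed.

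The ratio of ARID1A to ARID2 was 8.66, 5.77 and 9.04 after si-circ_0000839 and 5.61, 5.74 and 5.07 in NC. The groups did not overlap, though si-circ_0000839 replicate 2 lay just above NC replicate 2. The log2 difference was 0.49 with a within-group SD of 0.26 (exact permutation p = 0.1, the smallest possible, and 0.4 adjusted), and it ranged from 0.37 to 0.69 when 1 library was left out. It was 0.36 with the GC and length trend removed, and 0.34 when 1 FPKM was added to each value. SMARCC1 to SMARCC2 was 1.54, 1.94 and 1.70 against 1.81, 1.45 and 1.80, with a log2 difference of 0.04 (SD 0.17, exact permutation p = 0.7, adjusted 0.7). This difference ranged from -0.068 to 0.11 when 1 library was left out.

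**Figure D4:**
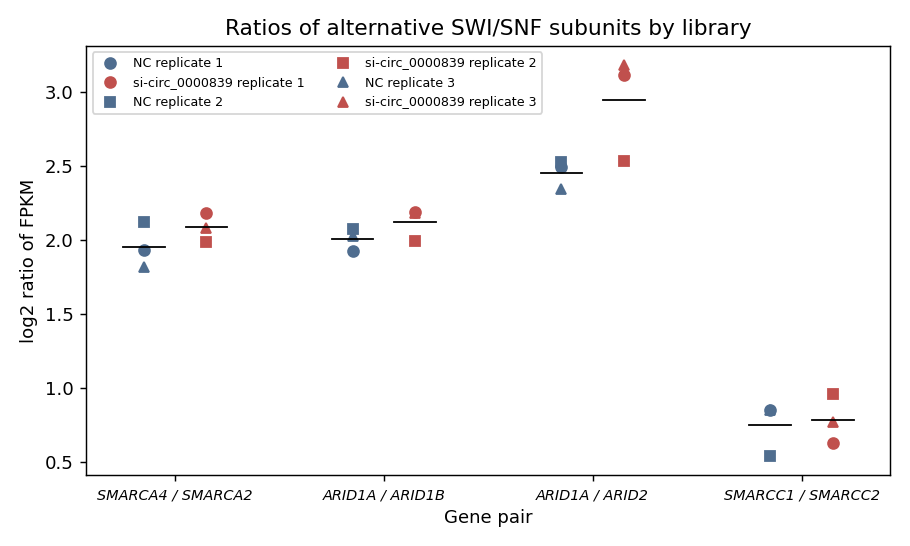
Log2 ratio of FPKM between alternative or paralogous subunits in each NC (blue) and si-circ_0000839 (red) library, with symbols for replicate number and bars for group means. Only the ARID1A to ARID2 ratio has groups that do not overlap, with a log2 difference of 0.49.

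Summed by role, the ATPases held 19.9, 18.2 and 17.8 FPKM after si-circ_0000839 and 16.1, 15.9 and 16.2 in NC, a sum set mostly by SMARCA4. The ARID subunits summed to 9.93, 9.21 and 9.33 FPKM against 8.56, 7.51 and 8.50, a sum set mostly by ARID1A. SMARCB1, SMARCC1, SMARCC2 and SMARCD1 together gave 66.6, 60.4 and 64.5 FPKM against 60.7, 61.0 and 59.7. The ATPase and ARID sums separated the groups, as SMARCA4 and ARID1A did alone, and the core sum did not. SMARCA2, ARID1B and ARID2 each overlapped between the groups. The members were chosen with earlier results known, so the sums carry no test.

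Of 19 other SWI/SNF subunit genes, 18 were tested and 0 passed in limma, with 9 above 0 and a median log2 change of 0.0014. At an unadjusted p under 0.05 there was 1, SS18L1, a paralog of the SS18 subunit, at 2.46, 2.47 and 2.34 FPKM after si-circ_0000839 and 2.04, 1.80 and 1.68 in NC. All its si-circ_0000839 values lay above NC, with a log2 change of 0.27 (SE 0.08, adjusted p = 0.232 in limma). Groups did not overlap for 3 of the 18, SS18L1, BCL7A and DPF3, all higher, against 10.6% of all tested genes. ACTB, the actin shared with the cytoskeleton, was the most abundant at 1949 against 1981 FPKM (log2 change -0.023, and 0.09 after quantile normalization), and BICRAL, of non-canonical BAF, the least abundant tested, at 1.09 against 1.13 FPKM (log2 change -0.029, and 0.0072 after quantile normalization). ACTL6B, the neuronal form of the actin-like subunit, had at most 0.0213 FPKM in a library. By role and not by value, the PBAF subunits PBRM1, BRD7 and PHF10 stood at 3.60 ± 0.348, 5.17 ± 0.281 and 5.16 ± 0.196 FPKM after si-circ_0000839 and 3.55 ± 0.528, 5.09 ± 0.247 and 5.14 ± 0.225 in NC (SD, n = 3).

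Remodelers of other families and the Polycomb complex PRC2, which opposes SWI/SNF, also gave 0 calls in limma and 0 genes at an unadjusted p under 0.05. Of 26 genes of the other remodelers 20 were tested, with 13 above 0 and a median log2 change of 0.03. The median was 0.0051 without NC replicate 2 and 0.011 without si-circ_0000839 replicate 3, where 19 were tested. It was 0.0034 with the GC and length trend removed, where 10 of 20 were above 0. BAZ1A, the ISWI partner with the smallest p, was at 1.94 ± 0.519 against 2.41 ± 0.248 FPKM in NC (log2 change -0.22, SE 0.12, adjusted p = 0.492), and its change was -0.12 when replicate 1 of si-circ_0000839 was left out and -0.36 when its replicate 2 was. RUVBL2, an ATPase of INO80-type complexes, was the most abundant at 59.1 against 58.5 FPKM, and SRCAP the least abundant of those tested at 1.06 against 0.951. Same-strand genes cover 94.5% of the coding bases of SRCAP, so its level carries the limit given for SMARCE1. All 11 PRC2 genes were tested, 4 of them above 0, with a median of -0.0061 that turned to 0.016 after rescaling to TPM and to 0.00082 without NC replicate 1. EZH2, the methyltransferase, had the smallest p, at 5.98 ± 0.489 against 6.64 ± 0.318 FPKM (log2 change -0.13, SE 0.08, adjusted p = 0.534), and its change was -0.080 without si-circ_0000839 replicate 1. PHF19 was the most abundant of them at 21.9 against 22.0 FPKM and EZH1 the least at 2.33 against 2.31.

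**Figure D5:**
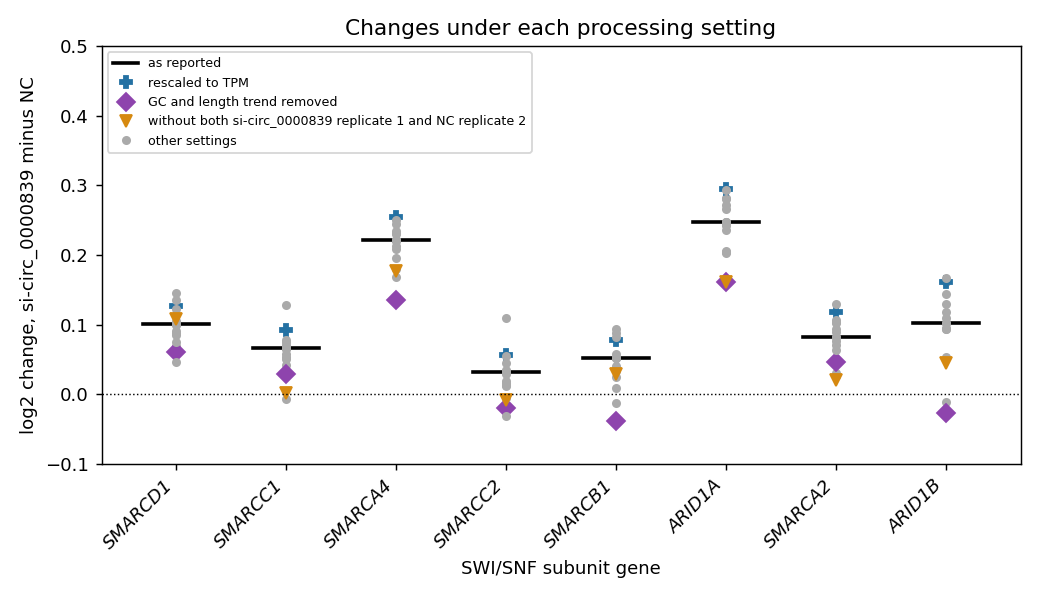
Log2 change, si-circ_0000839 minus NC, of the 8 tested members as reported (black bars) and under each alternative (points). SMARCA4 and ARID1A stay above 0 under all settings drawn, from 0.14 to 0.25 and from 0.16 to 0.29, while ARID1B, SMARCB1, SMARCC1 and SMARCC2 fall below 0 under at least 1.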

How the data were processed

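The authors deposited 1 table of FPKM values for 6 libraries with gene lengths, per the file headers. Per the submitters' processing notes, tools included HISAT2 2.0.5 and featureCounts 1.5.0-p3. No source used here gives the genome build, strand setting or scaling total. All 58735 genes had the coordinates, and gene lengths equal to the exon union, of GENCODE release 29 (GRCh38). FPKM times length was a whole multiple of 1 step per library for 100% of values above 0 (within 0.01), which gave reads. Chi-square per degree of freedom between libraries of one group was 3.14 to 10.8, above sampling noise, so none was a duplicate of another in its group. Libraries of different groups were not compared in this way.

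Groups came from sample titles. Log2(FPKM + 1) was fitted by limma 3.58.1 in R 4.3.3 (two-sided, prior variance allowed a trend on level). Genes needed an average of 1 FPKM or more, and the model held group only, with Benjamini-Hochberg adjustment over all tested genes. Overlap with other genes was measured in bases of GENCODE exons. The principal transcript is the longest with the best APPRIS tag, and GC content is that of the longest transcript. The fit was tested on simulated data. Named genes are the 10 members and, of each other list, its called genes or else its gene with the smallest p, and its most and least abundant tested gene. Outside this rule, BCL7A, DPF3, ACTL6B and CHD4 were named after their values were seen, and PBRM1, BRD7 and PHF10 by role. The members and lists were chosen with earlier results of these data known. Alternatives were other pseudocounts, filters and scalings, a replicate block, voom on recovered reads, a spline trend on length or on GC and length removed, and libraries left out.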

Additional observations from a re-analysis of the deposited data

How the results depend on the processing

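The trend on GC content and length, and voom, were added after the data were seen. A planned count test was not run, because the values are FPKM, and voom took its place. In every setting 0 members and 0 genes of the other lists passed. With the replicate number as a block 35 genes and 0 members were called. Same-numbered libraries deviated together at r = -0.15, -0.29 and 0.15, and si-circ_0000839 replicate 1 with NC replicate 2 at 0.35. The deviations were taken from means of only 3 libraries, so these values cannot show whether the numbers mark a pairing. Over all genes, 41 were called as reported, 4 without a filter, 68 at a minimum of 5 FPKM, 63 after quantile normalization, 85 with voom, 220 with the GC and length trend removed, 20 with NC replicate 2 and si-circ_0000839 replicate 1 both left out, and 20 to 37 with 1 library left out (20 for si-circ_0000839 replicate 1, 21 for si-circ_0000839 replicate 3 and 21 for NC replicate 3).

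The median log2 change of members was 0.041 with the length trend removed, 0.038 with the GC and length trend removed, 0.029 without both those libraries, and 0.075 to 0.12 with 1 left out. ARID2 passed the filter without both those libraries and without si-circ_0000839 replicate 1 or replicate 3. The medians of those settings are over 9 members and the rest of these over 8, so they are not strictly alike. For the other SWI/SNF subunits the median was 0.023 after quantile normalization, 0.021 after TPM, -0.0035 without both those libraries, and 0.00025 to 0.025 with 1 library left out. The ARID1A to ARID1B log2 difference was 0.23 with the length trend removed.

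Directions turned for some of the named genes, none of which was called in any setting. The directions of called genes were not compared. With the length trend removed ARID1B was at -0.011 and EZH1 at -0.0048. With the GC and length trend removed ARID1B was at -0.027, SMARCB1 at -0.038, SMARCC2 at -0.020, RUVBL2 at -0.018, SRCAP at -0.00062 and EZH1 at -0.031. Without both libraries SMARCC2 was at -0.0077, SRCAP at -0.0042, PHF19 at 0.0047 and EZH1 at -0.092. After quantile normalization ACTB was at 0.093 and BICRAL at 0.0072, and after TPM ACTB at 8.0e-05 and PHF19 at 0.016. With 1 library left out the ranges were -0.013 to 0.094 for SMARCB1, -0.0068 to 0.13 for SMARCC1, -0.031 to 0.11 for SMARCC2, -0.053 to 0.013 for ACTB, -0.065 to 0.016 for BICRAL, -0.017 to 0.080 for RUVBL2, -0.034 to 0.028 for PHF19 and -0.059 to 0.095 for EZH1. The cause was not tested. ARID2 rests on at most 268 reads and SMARCE1 on at most 46, which limits both.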

Other observations

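The remodeler genes CHD4 and SRCAP showed the same arrangement as SMARCE1: genes on the same strand cover 99.4% and 94.5% of the coding bases of their principal transcripts. CHD4, the ATPase of the NuRD complex, stood at 0.989 FPKM after si-circ_0000839 and 0.987 in NC, and SRCAP at 1.06 and 0.951. They were picked out after their values were seen, as the genes among the 4 lists with more than 50% of coding bases shared. Whether reads on shared exons set these levels was not tested.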
